A study of Homo sapiens with 4 samples.

Results

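Integrin subunits and laminin chains were followed in A549 cells, as labelled, a line from a human lung adenocarcinoma, that had been divided by FACS on ICAM1 antibody staining into an ICAM1-high and an ICAM1-low subset. Genes were taken by symbol alone, as protein-coding genes named as integrin alpha or beta subunits or as laminin alpha, beta or gamma chains. That gave 38 of the 58735 genes in the count table, 26 of them integrin subunits and 12 laminin chains. RNA was sequenced from 4 libraries, 2 of ICAM1-high and 2 of ICAM1-low cells, all labelled wild-type and grown in DMEM with fetal bovine serum, with no further agent given. By their labels both subsets share 1 cell line and 1 culture protocol, and differ by the sort.

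Integrins are membrane receptors made of 1 alpha and 1 beta subunit that tie the extracellular matrix or a neighbouring cell to the cytoskeleton. The beta1 subunit pairs with many alpha subunits, and the pairing sets the ligand. The alpha3, alpha6 and beta4 subunits serve laminin receptors of epithelia, the alpha5 and alphaV subunits serve receptors for fibronectin and vitronectin, and the beta2 subunit serves leukocyte receptors that bind ICAM1. Laminins are trimers of 1 alpha, 1 beta and 1 gamma chain in basement membranes, on which lung epithelium rests. The members were set in 4 groups, with 6 epithelial, 11 matrix and 9 leukocyte and platelet integrin subunits and 12 laminin chains. The beta1 subunit was counted with the epithelial group, although nearly all cell types carry it.

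Library totals were 16272591 to 17638647 counts, and levels are given as counts per 1e6 (CPM) after TMM scaling between libraries. At this depth 3 counts, taken as the floor, correspond to 0.161 to 0.195 CPM in a library. Whether a subset's libraries are separate cultures is not said in the labels, and p-values therefore reflect only how these libraries spread, which may be technical. ICAM1, the sorting marker, was at 113 ± 3.59 CPM in ICAM1-high cells and 4.74 ± 0.201 CPM in ICAM1-low cells (SD, n = 2 each). KRT8, a keratin of simple epithelium, was at 3068 CPM in ICAM1-high cells and 1288 CPM in ICAM1-low cells. ALDH1A1, abundant in A549, was at 5407 CPM in ICAM1-high cells and 11306 CPM in ICAM1-low cells. Both genes were thus at high levels in both subsets, but they differed between them. Of 11 epithelial and A549 markers 9 were tested, and by the test given below 4 were called higher in ICAM1-high cells and 5 lower. KRT8, KRT18, KRT19 and CDH1 were higher. ALDH1A1, AKR1B10, NQO1, EPCAM and AKR1C1 were lower, with log2 fold changes of -1.06, -0.79, -0.75, -0.63 and -0.31. The lung identity genes SFTPC and NKX2-1 were near 0 in both subsets, with at most 5 counts over a subset. A549 is known to have lost CDKN2A, CDKN2B and MTAP, yet the ICAM1-high libraries held 2223, 356 and 922 counts of these genes, against 0, 0 and 9 in the ICAM1-low libraries. Both ICAM1-high libraries thus stand against the A549 label at these genes. With both on 1 side of the comparison, no result below can be given without them together. In every result below, a difference that goes with ICAM1 therefore cannot be told apart from a difference in cell identity between the subsets. Each library was left out in turn, which cannot separate the 2. In bulk libraries, fewer cells of a type and less RNA per cell cannot be told apart.

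Short stretches before the start of 6 members are shown because these members had the largest differences in each direction among called members of at least 5 CPM with a window in the RefSeq promoter table (GRCh38.p14), which held 26 of the 38. LAMC3 had a larger difference and had no window. Each window runs 250 bases before the RefSeq start, and bases in exons of the gene in GENCODE 29 were left off, so the stretches are 52 to 250 bases long. Sequences run 5′ to 3′ on the gene's strand, and capitals mark matches, on either strand, to the motifs listed after them.
ITGB8 (higher in ICAM1-high cells, chr7:20330650-20330701, plus strand): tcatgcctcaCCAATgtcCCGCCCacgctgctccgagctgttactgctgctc
ITGA5 (higher in ICAM1-high cells, chr12:54419461-54419516, minus strand): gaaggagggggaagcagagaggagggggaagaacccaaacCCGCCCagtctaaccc
LAMB3 (higher in ICAM1-high cells, chr1:209652467-209652675, minus strand): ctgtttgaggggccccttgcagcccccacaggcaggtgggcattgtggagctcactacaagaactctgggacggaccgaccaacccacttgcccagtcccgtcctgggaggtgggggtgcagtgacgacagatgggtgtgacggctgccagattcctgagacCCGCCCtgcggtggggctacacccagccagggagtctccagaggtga
ITGA6 (lower in ICAM1-high cells, chr2:172427086-172427335, plus strand): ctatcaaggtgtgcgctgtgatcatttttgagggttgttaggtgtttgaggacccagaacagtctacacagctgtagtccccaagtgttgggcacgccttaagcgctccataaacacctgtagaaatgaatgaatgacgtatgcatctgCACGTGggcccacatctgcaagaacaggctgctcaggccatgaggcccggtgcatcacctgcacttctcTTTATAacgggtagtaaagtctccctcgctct
ITGB5 (lower in ICAM1-high cells, chr3:124901419-124901668, minus strand): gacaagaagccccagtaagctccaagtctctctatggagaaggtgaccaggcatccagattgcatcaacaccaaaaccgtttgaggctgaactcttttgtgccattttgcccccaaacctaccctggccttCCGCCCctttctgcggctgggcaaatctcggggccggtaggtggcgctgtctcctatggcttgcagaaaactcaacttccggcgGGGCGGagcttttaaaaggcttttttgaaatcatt
LAMB1 (lower in ICAM1-high cells, chr7:108003256-108003411, minus strand): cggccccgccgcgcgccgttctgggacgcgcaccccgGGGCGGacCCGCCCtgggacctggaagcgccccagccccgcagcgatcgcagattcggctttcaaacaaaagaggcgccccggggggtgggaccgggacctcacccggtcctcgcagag

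Both strands were searched for 6 short motifs, and in the printed stretches no match overlapped another. The GC box (GGGCGG) was found in the full windows of 13 of 26 members and in 42.3% of all 27305 windows. The CCAAT box (CCAAT) was found in 4 members and 33.0% of windows, and the TEAD motif (GGAATG) in 4 members and 11.9% of windows. The AP-1 motif (TGAGTCA), the TATA box (TATAAA) and the E-box (CACGTG) were each found in 1 member, against 4.16%, 11.1% and 6.49% of windows. ITGA6 alone held the TATA box and the E-box, and LAMA3 alone the AP-1 motif. ITGB5 held 2 GC boxes, and its stretch and that of ITGA6 were the poorest in G and C among the 6, with 52.8% and 50.8%. These matches describe letters and say nothing of binding.

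Epithelial integrin mRNAs were lower in ICAM1-high cells, with 5 of 6 subunits called lower, 0 called higher and a median log2 fold change of -0.56. A call is an adjusted p under 0.05 in edgeR's quasi-likelihood test over 16250 genes, of which 59.7% were called in either direction, 30.4% higher and 29.4% lower. Of all genes averaging 10 CPM or more, as all 5 of these subunits did, 40.1% were called lower. All genes tested had a median log2 fold change of 0.01. The summed level of the group was 2668 ± 49.7 CPM in ICAM1-high cells and 4262 ± 24.7 CPM in ICAM1-low cells (SD, n = 2 each).

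ITGB1 (ENSG00000150093, chromosome 10, 32900319 to 33005792, GRCh38), the common beta subunit, was at 1372 and 1304 CPM in the ICAM1-high libraries, against 2271 and 2249 CPM in the ICAM1-low libraries. The subsets did not overlap, and ITGB1 fell by 0.76 on the log2 scale (SE 0.04, adjusted p = 3.62e-28). ITGA6 (chromosome 2, 172427354 to 172506282), the laminin-binding partner of beta1 and beta4, was at 121 and 117 CPM in ICAM1-high cells, against 235 and 240 CPM in ICAM1-low cells. It fell by 1.00 (SE 0.05, adjusted p = 4.95e-29), the deepest fall of the group, and its TATA-bearing window is the fourth sequence shown above. ITGA3 (chromosome 17, 50055968 to 50090481), another laminin receptor subunit, was at 639 and 655 CPM in ICAM1-high cells, against 1022 and 1024 CPM in ICAM1-low cells (log2 fold change -0.66, SE 0.04). ITGA2, which binds collagen with beta1, was at 248 and 226 CPM in ICAM1-high cells, against 334 and 323 CPM in ICAM1-low cells (log2 fold change -0.47, SE 0.04). The hemidesmosome subunit gene ITGB4 had the smallest fall, 321 and 330 CPM in ICAM1-high cells, against 417 and 408 CPM in ICAM1-low cells (log2 fold change -0.34, SE 0.04, adjusted p = 4.48e-11). All 5 were called lower under every alternative tried, at -0.30 for ITGA2 and -0.17 for ITGB4 when libraries were scaled by size alone. ITGB6, a partner of alphaV in epithelia that activates TGF-beta, was rare, with 33 and 29 counts in ICAM1-high cells and 17 and 21 counts in ICAM1-low cells. Its log2 fold change of 0.45 (SE 0.36, adjusted p = 0.294) did not pass the test.

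**Figure D1:**
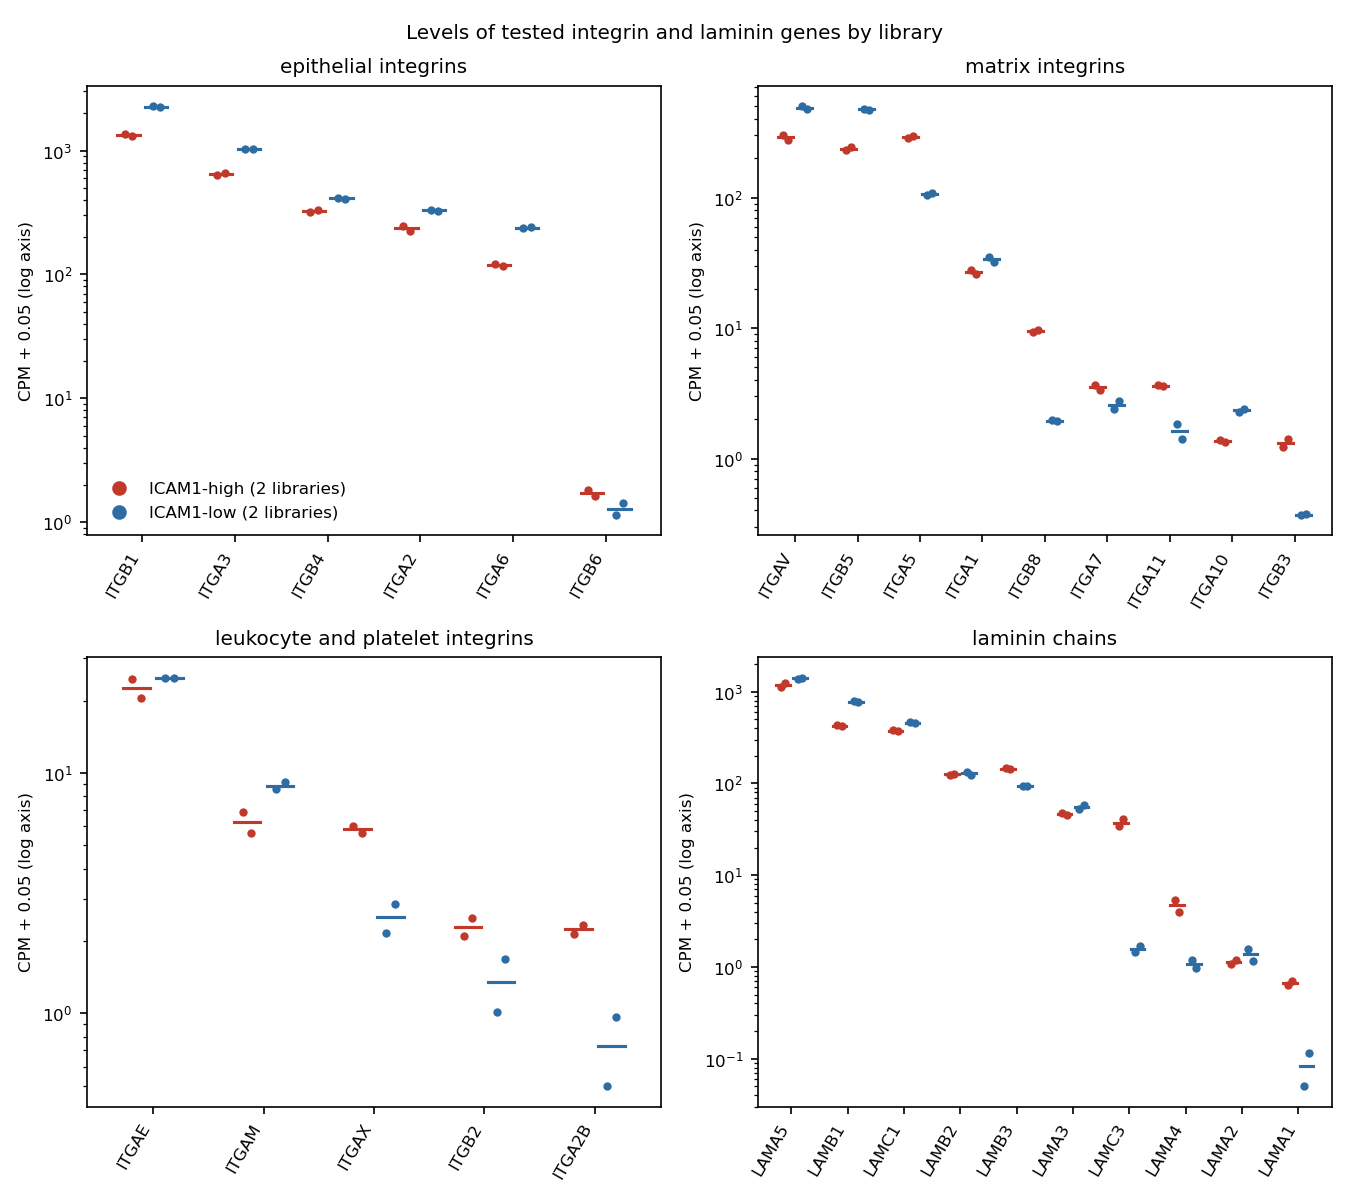
Level of the tested members (1 not shown) in each library, as CPM plus 0.05 on a log axis, with ICAM1-high points left of ICAM1-low points and bars at the mean of 2 libraries. ITGA5, ITGB8 and LAMC3 lie higher in ICAM1-high cells, whereas ITGB1, ITGA6, ITGB5 and LAMB1 lie lower.

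Matrix integrins split evenly, with 4 subunits called higher, 4 called lower and 1 not called among the 9 tested of 11, at a median log2 fold change of 0.45. Each direction held 44.4% of the tested subunits, against 30.4% higher and 29.4% lower among all genes tested. Of the 4 called higher, ITGB3 entered the test through its ICAM1-high counts alone. ITGA5, the fibronectin receptor subunit, rose and was the sole riser of this group above 10 CPM, while the vitronectin receptor subunits ITGAV and ITGB5 fell. The group's summed level was 866 ± 2.2 CPM in ICAM1-high cells and 1114 ± 19.0 CPM in ICAM1-low cells (SD, n = 2 each).

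ITGA5 (ENSG00000161638, chromosome 12, 54395261 to 54419460) was at 286 and 298 CPM in the ICAM1-high libraries, against 104 and 109 CPM in the ICAM1-low libraries. The gap between the subsets was many times the spread within either, and ITGA5 rose by 1.46 (SE 0.05, adjusted p = 2.71e-38), which is 2.75-fold. ITGB5 (chromosome 3, 124761948 to 124901418), a partner of alphaV in vitronectin binding, was at 231 and 244 CPM in ICAM1-high cells, against 480 and 471 CPM in ICAM1-low cells. It fell by 1.00 (SE 0.04, adjusted p = 2.17e-32) with no overlap between the subsets. ITGAV itself (chromosome 2, 186590065 to 186680901) was at 304 and 276 CPM in ICAM1-high cells, against 500 and 480 CPM in ICAM1-low cells, and fell by 0.76 (SE 0.04, adjusted p = 3.52e-24).

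ITGB8 and ITGB3, rarer partners of alphaV, went the other way. ITGB8 (chromosome 7, 20330702 to 20415754), which serves TGF-beta activation, had 173 and 176 counts in ICAM1-high cells, against 30 and 29 counts in ICAM1-low cells. It rose by 2.30 (SE 0.21, adjusted p = 2.55e-15), the largest log2 fold change among tested integrin subunits. ITGB3, the beta subunit shared with the platelet fibrinogen receptor, had 22 and 25 counts in ICAM1-high cells, against 5 and 5 counts in ICAM1-low cells (log2 fold change 1.95, SE 0.52, adjusted p = 8.93e-04). ITGB3 entered the test through its ICAM1-high counts alone, so its rise was largely fixed by its being tested, and with DESeq2 the adjusted p was 0.0576. It also shares 2266 exon bases with a second annotated gene on its strand, which had 0 counts in every library.

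Collagen-binding subunits were low and mixed. ITGA11, known from fibroblasts, had 67 and 65 counts in ICAM1-high cells, against 28 and 21 counts in ICAM1-low cells (log2 fold change 1.17, SE 0.28, adjusted p = 2.69e-04). ITGA10, known from cartilage, had 25 and 24 counts in ICAM1-high cells, against 35 and 36 counts in ICAM1-low cells (log2 fold change -0.79, SE 0.33, adjusted p = 0.0334). The ITGA10 call was lost whichever library was left out, with adjusted p between 0.0860 and 0.122, with DESeq2 (0.257) and with scaling by library size alone (0.10). ITGA1 was at 27.7 and 25.8 CPM in ICAM1-high cells, against 35.3 and 31.8 CPM in ICAM1-low cells (log2 fold change -0.33, SE 0.09, adjusted p = 9.10e-04), a call lost without ICAM1-low replicate 1 (adjusted p = 0.0556) and with scaling by library size alone (log2 fold change -0.15, adjusted p = 0.121). ITGA1 shares 475 exon bases with PELO on the same strand, so reads there could belong to either gene. PELO had 1659 counts in ICAM1-high cells and 1531 in ICAM1-low cells. ITGA7, a laminin-binding subunit of muscle, had 68 and 61 counts in ICAM1-high cells and 37 and 42 counts in ICAM1-low cells. Its log2 fold change of 0.45 (SE 0.26, adjusted p = 0.126) did not pass the test, although it did with scaling by library size alone (0.62, adjusted p = 0.0312). ITGA8 had 0 counts in every library, and ITGA9 had 3 and 1 counts in ICAM1-high cells and 0 in both ICAM1-low libraries, so neither was tested.

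**Figure D2:**
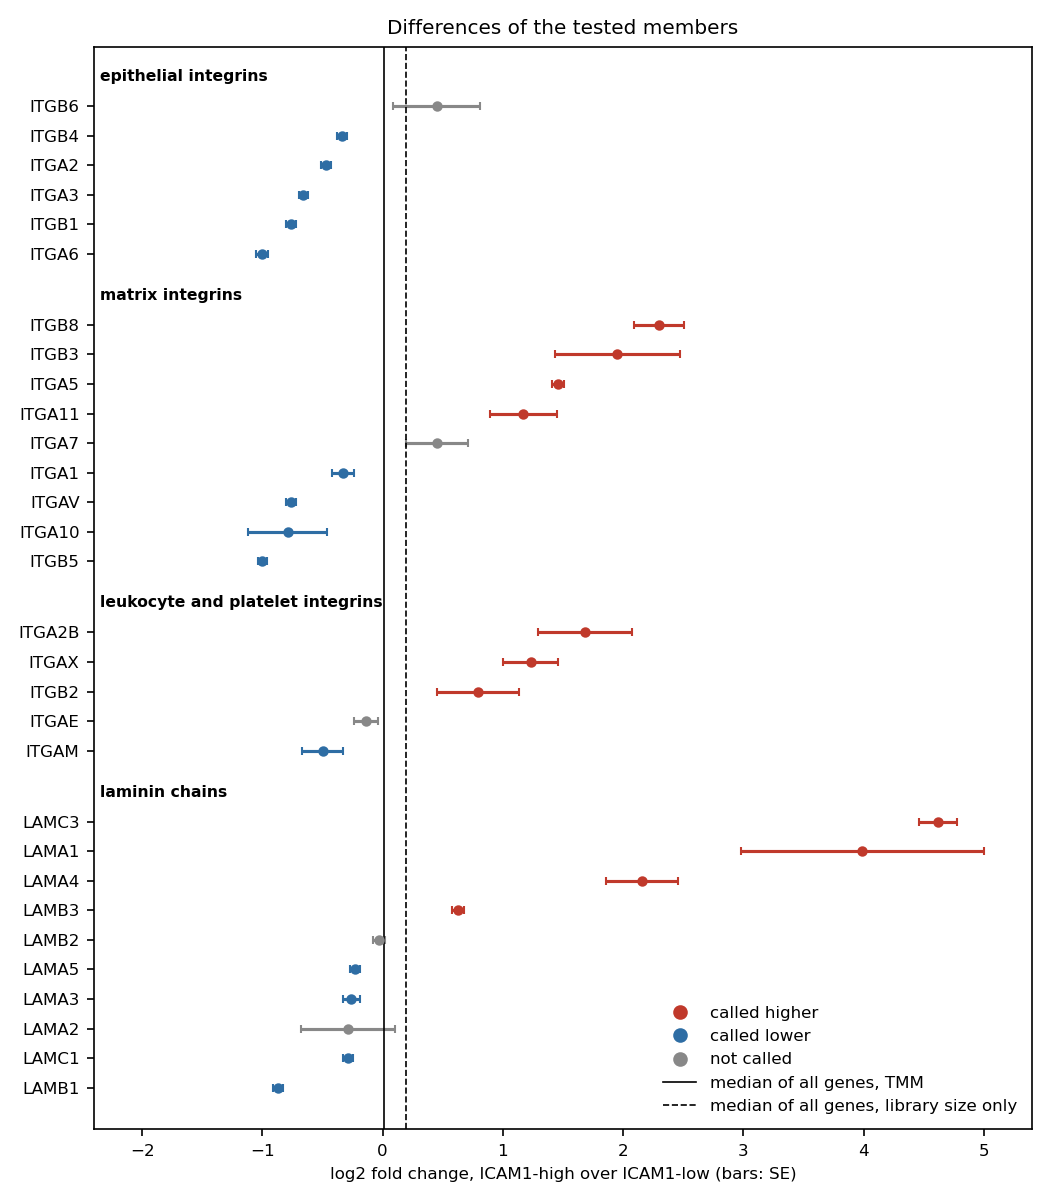
Log2 fold change of ICAM1-high over ICAM1-low for the tested members (1 not shown), with bars of 1 SE, grouped as in the text and coloured by call. The solid line marks the median of all genes with TMM scaling (0.01) and the dashed line that with scaling by library size alone (0.19). The epithelial integrins other than ITGB6 lie left of both lines.

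Leukocyte and platelet integrins were rare in both subsets. Of 9 subunits 5 were tested, 3 were called higher and 1 lower. Of all genes tested, 30.4% were called higher and 29.4% lower. Of those under 10 CPM, as the tested subunits other than ITGAE were, 28.2% were called higher and 13.1% lower. Of the 3 called higher, ITGA2B entered the test through its ICAM1-high counts alone, and the ITGB2 call was lost under several alternatives. The summed level was 39.9 ± 3.06 CPM in ICAM1-high cells and 38.5 ± 1.75 CPM in ICAM1-low cells (SD, n = 2 each). Most of that sum was ITGAE, the subunit known from mucosal T cells that binds E-cadherin, at 24.5 and 20.5 CPM in ICAM1-high cells and 24.7 and 24.9 CPM in ICAM1-low cells. Its log2 fold change of -0.14 (SE 0.10, adjusted p = 0.218) did not pass the test. It did without ICAM1-high replicate 1 (-0.28, adjusted p = 0.0266). ITGAE shares 427 exon bases with HASPIN on the other strand.

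The subunits that form ICAM1 receptors were among the rare ones. ITGB2, the common beta subunit of these receptors, had 38 and 45 counts in ICAM1-high cells, against 15 and 25 counts in ICAM1-low cells (log2 fold change 0.79, SE 0.34, adjusted p = 0.0380). That call rested on single libraries, with adjusted p = 0.0559 and 0.216 without ICAM1-high replicates 1 and 2, and a log2 fold change of 0.45 (adjusted p = 0.360) without ICAM1-low replicate 1 and of 1.21 without replicate 2. It was also lost with DESeq2 (0.299) and with no filter (0.0652). ITGAL, the alpha subunit of the main lymphocyte receptor for ICAM1, had 3 and 5 counts in ICAM1-high cells and 3 and 1 counts in ICAM1-low cells, and was not tested. ITGAX, known from dendritic cells, had 111 and 103 counts in ICAM1-high cells, against 33 and 43 counts in ICAM1-low cells, and rose by 1.23 (SE 0.23, adjusted p = 3.24e-06). ITGAM, the alpha subunit of a myeloid receptor, had 128 and 103 counts in ICAM1-high cells, against 133 and 140 counts in ICAM1-low cells, and fell by 0.50 (SE 0.17, adjusted p = 0.00780). Leaving out ICAM1-high replicate 2 ended the ITGAM call (adjusted p = 0.102), as did DESeq2 (0.130) and scaling by library size alone (0.0866). ITGAX, ITGAM and ITGAD, which lie next to each other on chromosome 16, are related in sequence. For that relation reads may be shared among them. ITGA2B, the platelet fibrinogen receptor subunit, had 39 and 42 counts in ICAM1-high cells, against 7 and 14 counts in ICAM1-low cells (log2 fold change 1.68, SE 0.39, adjusted p = 1.81e-04), and passed the filter through ICAM1-high alone. ITGA4, ITGAD and ITGB7 had 7, 14 and 7 counts over the ICAM1-high libraries and 1, 8 and 1 counts over the ICAM1-low libraries.

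Several defining markers of blood cells were at 0 in the same libraries, whereas others were counted. Of 14 leukocyte markers, PTPRC, CD3E and AIF1 had 0 counts in all 4 libraries, and 4 were tested, of which 2 were called higher and 0 lower. Their summed level was 28.7 to 29.5 CPM in ICAM1-high cells and 15.6 to 16.2 CPM in ICAM1-low cells, most of it CD14 (18.5 CPM in ICAM1-high cells, 9.42 in ICAM1-low cells), which other cells express too. LAPTM5, the other marker called higher, had 75 counts in ICAM1-high cells and 4 in ICAM1-low cells, and entered the test only through its ICAM1-high counts. Among 6 platelet markers, GP9 and GP1BB were at 0 in all libraries, 1 was tested and 0 were called. Their summed level was 6.41 to 6.80 CPM in ICAM1-high cells and 6.96 to 9.44 CPM in ICAM1-low cells. Most of it was GP1BA, the 1 tested, with 212 counts in ICAM1-high cells and 232 in ICAM1-low cells.

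Laminin chains changed in both directions. Among the 11 tested of 12 chains, 5 were called higher (45.5%) and 4 lower (36.4%), against 30.4% and 29.4% of all genes tested. LAMA1, 1 of the 5, entered the test through its ICAM1-high counts alone. The median log2 fold change was -0.03. The summed level was 2411 ± 56.7 CPM in ICAM1-high cells and 2958 ± 25.8 CPM in ICAM1-low cells (SD, n = 2 each). LAMC3, a rarely used gamma chain, had the largest rise of any member, and LAMB1, the common beta chain, the deepest fall of this group. LAMB3 and LAMA3, which serve laminin of epithelial anchoring structures, did not rise together. LAMB3 rose, whereas LAMA3 was called lower by 0.26, a call lost with scaling by library size alone.

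LAMC3 (ENSG00000050555, chromosome 9, 131009082 to 131094473) had 645 and 743 counts in the ICAM1-high libraries, against 22 and 25 counts in the ICAM1-low libraries. These are 37.5 ± 4.13 CPM in ICAM1-high cells and 1.52 ± 0.157 CPM in ICAM1-low cells, so LAMC3 rose by 4.62 (SE 0.16, adjusted p = 1.40e-37). LAMC1 (chromosome 1, 183023460 to 183145592), the gamma chain of most laminins, was at 380 and 371 CPM in ICAM1-high cells, against 463 and 455 CPM in ICAM1-low cells. It fell by 0.29 (SE 0.04, adjusted p = 3.13e-09), and by 0.12 with scaling by library size alone.

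Among beta chains, LAMB1 (chromosome 7, 107923799 to 108003255) was at 432 and 421 CPM in ICAM1-high cells, against 784 and 773 CPM in ICAM1-low cells. It fell by 0.87 (SE 0.04, adjusted p = 1.34e-30) with a wide gap between the subsets. LAMB3 (chromosome 1, 209614870 to 209652466) was at 147 and 142 CPM in ICAM1-high cells, against 94.0 and 93.1 CPM in ICAM1-low cells, and rose by 0.63 (SE 0.05, adjusted p = 8.31e-17). LAMB2, which can take the place of LAMB1 in trimers, was at 124 and 128 CPM in ICAM1-high cells and 133 and 125 CPM in ICAM1-low cells, overlapping between the subsets. Its log2 fold change of -0.03 (SE 0.05, adjusted p = 0.626) turned to 0.14 (adjusted p = 0.0145) with scaling by library size alone. LAMB4 had 10 and 4 counts in ICAM1-high cells and 7 and 7 counts in ICAM1-low cells, and was not tested.

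Of the alpha chains, LAMA5 (chromosome 20, 62307955 to 62367312), the chief chain of adult epithelial basement membranes, was at 1137 and 1245 CPM in ICAM1-high cells, against 1362 and 1425 CPM in ICAM1-low cells. Its fall of 0.23 (SE 0.04, adjusted p = 1.31e-06) was lost with scaling by library size alone (log2 fold change -0.05, adjusted p = 0.239). LAMA3 was at 47.8 and 45 CPM in ICAM1-high cells, against 52.4 and 58.6 CPM in ICAM1-low cells, and fell by 0.26 (SE 0.07, adjusted p = 0.00147), a call lost without ICAM1-low replicate 2 (adjusted p = 0.113) and with scaling by library size alone (0.319). LAMA4, the chain of blood vessel and mesenchymal laminins, had 100 and 72 counts in ICAM1-high cells, against 18 and 14 counts in ICAM1-low cells, and rose by 2.16 (SE 0.30, adjusted p = 2.72e-09). LAMA1, a chain of embryonic laminin, had 11 and 12 counts in ICAM1-high cells, against 0 and 1 counts in ICAM1-low cells, a ratio of 19.2 with a 95% exact binomial interval of 3.12 to 793 that covers counting error only. LAMA1 was called higher (adjusted p = 4.99e-04), passed the filter through ICAM1-high alone and had an adjusted p of 0.0557 with DESeq2. The muscle chain LAMA2 had 19 and 21 counts in ICAM1-high cells and 24 and 17 counts in ICAM1-low cells, and its log2 fold change, -0.29 (SE 0.39, adjusted p = 0.546), did not pass the test.

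Fibroblast and endothelial markers, relevant to ITGA11 and LAMA4, were also examined. For comparison, 30.4% of all genes tested were called higher and 29.4% lower. Of 10 fibroblast markers, 6 passed the filter, with 4 called higher and 0 lower, and their summed level was 32.9 to 36.9 CPM in ICAM1-high cells and 5.62 to 6.77 CPM in ICAM1-low cells, most of it COL1A1 (28.5 CPM in ICAM1-high cells, 4.06 in ICAM1-low cells). COL1A2, COL3A1 and DCN, which are abundant in fibroblasts, had 0, 0 and 1 counts in ICAM1-high cells and 1, 2 and 2 counts in ICAM1-low cells. LUM, FAP and PDGFRB, other fibroblast markers, were called higher, with 99, 42 and 26 counts in ICAM1-high cells and 8, 1 and 5 counts in ICAM1-low cells. These 3 entered the test only through their ICAM1-high counts, so their direction was largely fixed by the filter. Of 8 endothelial markers 4 were tested, 3 were called higher and 0 lower, with a summed level of 33.9 to 34.0 CPM in ICAM1-high cells and 28.2 to 32.3 CPM in ICAM1-low cells, most of it EGFL7 (25.8 CPM in ICAM1-high cells, 29.3 in ICAM1-low cells). CDH5 and ERG, 2 of the 3 called higher, had 64 and 89 counts in ICAM1-high cells and 1 and 0 counts in ICAM1-low cells, and they too were tested through ICAM1-high alone. PECAM1, the other one, passed the filter in both subsets, with 133 counts in ICAM1-high cells and 26 in ICAM1-low cells. Its log2 fold change was 2.09 (SE 0.33, edgeR adjusted p = 8.51e-08). KDR had 5 counts in ICAM1-high cells and 0 in ICAM1-low cells. Of 6 basal keratinocyte markers 4 were tested, 2 were called higher and 0 lower, and the sum was 17.7 to 19.2 CPM in ICAM1-high cells and 12.8 to 14.1 CPM in ICAM1-low cells. The 2 called higher, KRT6A and NGFR, likewise passed the filter through ICAM1-high alone, with 90 and 99 counts in ICAM1-high cells and 1 and 18 counts in ICAM1-low cells. The part of other cells in the rises of ITGA11, LAMA4 and LAMB3, or in the rise or fall of any other member, was not tested.

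Direction went with abundance among the members. Of the 18 members with a mean of at least 10 CPM, 12 were called lower and 4 higher, ITGA5, LAMB3 and LAMC3 among them, where 40.1% of all genes at that level were called lower and 31.8% higher. Of the 13 tested members under 10 CPM, 8 were called higher and 2 lower, where 28.2% of all genes at that level were called higher and 13.1% lower. The 8 include ITGB3, ITGA2B and LAMA1, whose direction was largely fixed by the filter, since they passed it through ICAM1-high alone. Overall 12 of 31 tested members were called higher and 14 lower, 83.9% in all, against 59.7% of all genes. Differences of at least 2-fold were found for 9 members that rose and 1 that fell, against 10.8% and 4.71% of all genes. Of the 9, 3 (ITGB3, ITGA2B and LAMA1) passed the filter through ICAM1-high alone. The libraries of the subsets did not overlap for 29 of the 31, against 78.4% of all genes. With scaling by library size alone, which put the median over all genes 0.17 higher on the log2 scale and brought the share of higher among all calls to 68.3% in place of 50.8%, 14 members were called higher and 9 lower. The level of a gene also sets how small a difference can be called.

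**Figure D3:**
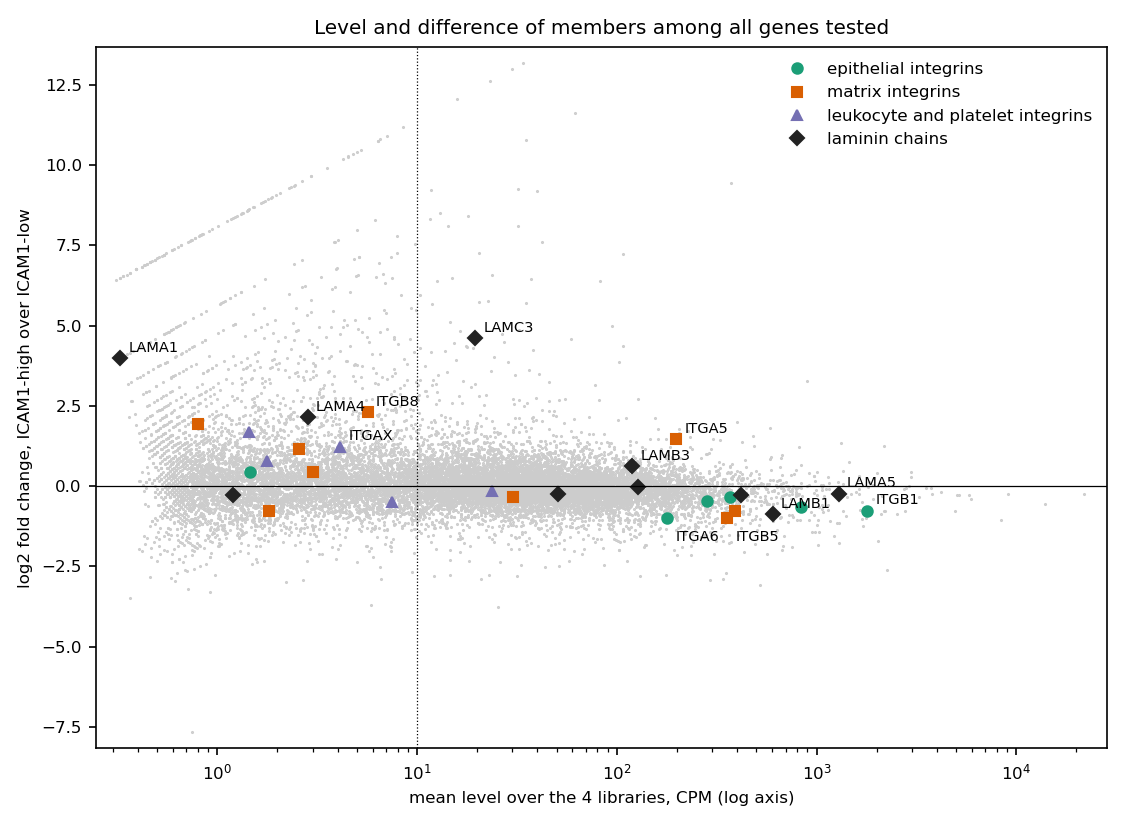
Log2 fold change of ICAM1-high over ICAM1-low against mean CPM over 4 libraries (log axis) for all 16250 genes tested (grey) and the tested members (coloured by group, 1 not shown). The dotted line marks 10 CPM; right of it ITGA5, LAMB3 and LAMC3 lie above 0, and 12 called members lie below 0.

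Levels of different genes were compared per kb of annotated exon. ITGB1 was the highest member on that scale, at 223 CPM per kb in ICAM1-high cells and 376 in ICAM1-low cells. In ICAM1-high cells it was followed by LAMA5 (83.3), ITGA3 (66.0), LAMB1 (52.4) and ITGB4 (48.2). In ICAM1-low cells it was followed by ITGA3 (104), LAMA5 (97.5), LAMB1 (95.6) and ITGB5 (73.8). The alpha subunits that can pair with beta1 summed to 191 ± 2.53 CPM per kb in ICAM1-high cells and 259 ± 1.65 in ICAM1-low cells (SD, n = 2 each), below the level of ITGB1 in both.

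The make-up of that alpha pool differed between the subsets. ITGA5 held 19.6% and 20.9% of the pool per kb in the ICAM1-high libraries, against 5.27% and 5.58% in the ICAM1-low libraries. ITGA3 held 34.6% ± 1.06 in ICAM1-high cells and 40.3% ± 0.302 in ICAM1-low cells, and ITGA6 held 9.55% ± 0.114 in ICAM1-high cells and 14.1% ± 0.272 in ICAM1-low cells (SD, n = 2 each). ITGAV held 18.5% ± 0.994 in ICAM1-high cells and 23.1% ± 0.502 in ICAM1-low cells. The share of ITGA2 was close in both, at 15.7% ± 0.806 in ICAM1-high cells and 16.1% ± 0.251 in ICAM1-low cells. Among the beta partners of alphaV other than beta1, ITGB5 made up 96.7% ± 0.0939 in ICAM1-high cells and 99.4% ± 0.0646 in ICAM1-low cells, so the rises of ITGB8 and ITGB3 left ITGB5 dominant.

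Shares within the laminin beta chains differed between the subsets, and those within the alpha chains were close. LAMB3 made up 30.6% and 30.1% of beta chains per kb in ICAM1-high cells, against 14.8% and 14.9% in ICAM1-low cells. LAMB1 made up 51.5% ± 0.354 in ICAM1-high cells and 71.2% ± 0.298 in ICAM1-low cells (SD, n = 2 each). LAMA5 held 95.7% ± 0.497 of alpha chains in ICAM1-high cells and 96.1% ± 0.125 in ICAM1-low cells. These shares are descriptions, since 2 against 2 libraries cannot give an exact two-sided permutation p under 0.333.

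**Figure D4:**
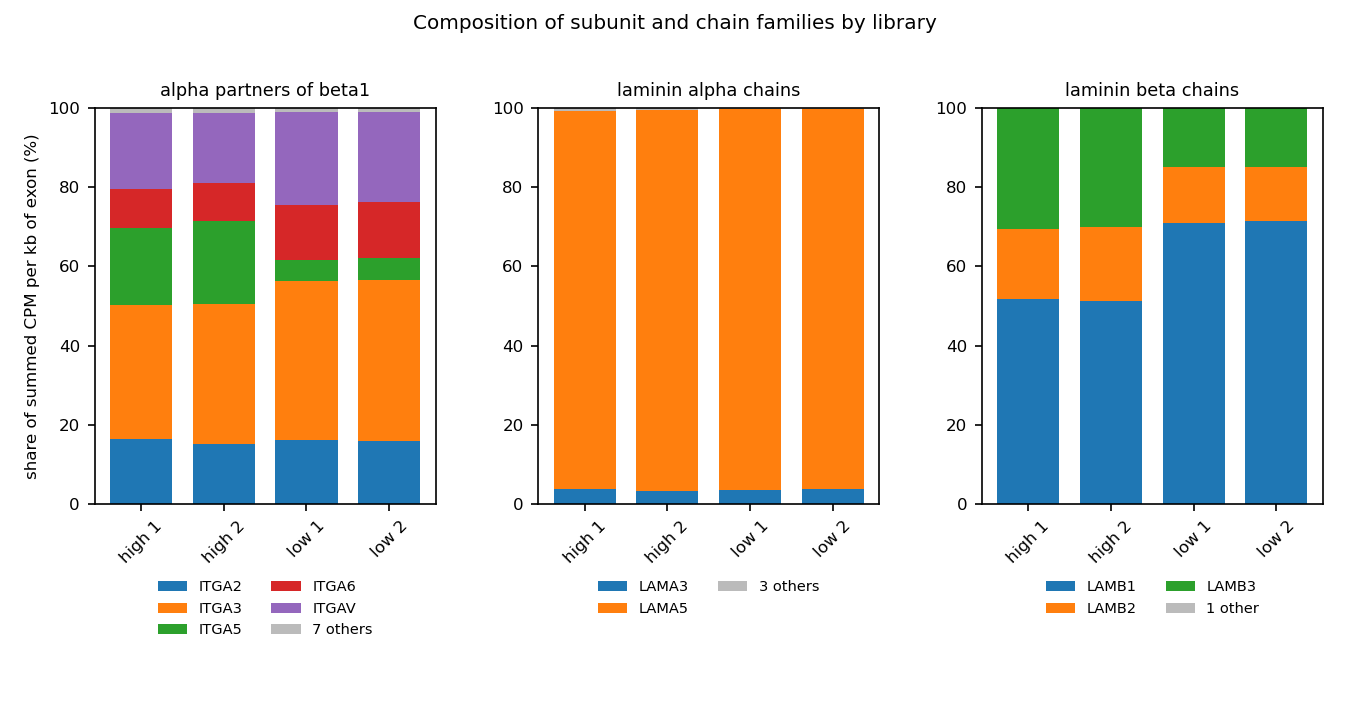
Share of each gene in the summed CPM per kb of exon of its family (percent), in each of 4 libraries with ICAM1-high left of ICAM1-low. ITGA5 takes 19.6% and 20.9% of the alpha pool in ICAM1-high cells, against 5.27% and 5.58% in ICAM1-low cells, and LAMB3 takes 30.6% and 30.1% of the beta chains in ICAM1-high cells, against 14.8% and 14.9% in ICAM1-low cells.

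Genes that work with integrins inside the cell showed no common direction. Of 30 tested among 31 adaptors and kinases, 11 were called higher and 10 lower, at a median log2 fold change of 0.01. These are 36.7% and 33.3%, near the 30.4% and 29.4% of all genes tested. TNS1, an actin and integrin tail linker of the tensin family, rose to 98.7 ± 11.6 CPM in ICAM1-high cells, against 23.3 ± 1.33 CPM in ICAM1-low cells (SD, n = 2 each; log2 fold change 2.08, SE 0.08). KANK2 and TNS2, other focal adhesion genes, rose by 0.96 and 0.80, whereas the adaptor gene PXN fell by 0.41. Among 9 tetraspanins, which associate with integrins in the membrane, 4 were called higher and 4 lower, 44.4% each. CD151, the partner of alpha3 and alpha6 integrins, was at 194 ± 2.09 CPM in ICAM1-high cells and 305 ± 12.1 CPM in ICAM1-low cells and fell by 0.66, the same log2 fold change as ITGA3. TSPAN4 and TSPAN14 fell by 0.65 and 0.50, and CD82 had 146 counts in ICAM1-high cells and 35 in ICAM1-low cells. Of 6 hemidesmosome partners, 4 were tested, 2 fell and 1 rose. DST, a linker of keratin to beta4, fell by 0.72 and PLEC, which binds beta4, by 0.31, while COL17A1 had 67 counts in ICAM1-high cells and 24 in ICAM1-low cells.

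Basement membrane genes were mostly higher, with 10 called higher and 4 lower among 16 tested of 17, at a median log2 fold change of 0.40. These are 62.5% and 25.0% of the tested genes, against 30.4% and 29.4% of all genes tested. The network collagen gene COL4A1 was at 129 ± 1.26 CPM in ICAM1-high cells and 50.3 ± 1.60 CPM in ICAM1-low cells (log2 fold change 1.36, SE 0.06, adjusted p = 4.35e-31), and its partner COL4A2 rose by 0.88. COL15A1 had 494 counts in ICAM1-high cells and 4 in ICAM1-low cells, and passed the filter through ICAM1-high alone. NTN4, a netrin that binds laminin gamma chains, fell to 58.2 ± 0.996 CPM in ICAM1-high cells, against 155 ± 5.15 CPM in ICAM1-low cells (log2 fold change -1.41, SE 0.06). Of 5 laminin receptors outside the integrin family, 2 rose. DAG1, the dystroglycan gene, was at 327 ± 0.221 CPM in ICAM1-high cells and 147 ± 7.36 CPM in ICAM1-low cells (log2 fold change 1.15, SE 0.05, adjusted p = 1.06e-33), and the syndecan gene SDC2 had 759 counts in ICAM1-high cells and 10 in ICAM1-low cells. Like COL15A1, SDC2 was tested through its ICAM1-high counts alone.

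Soluble and matrix ligands of integrins were called higher in 10 and lower in 3 of 17 tested among 20, with 3 of the 10 (EDIL3, NPNT and TGFB3) tested through ICAM1-high counts alone. That is 58.8% higher and 17.6% lower, against 30.4% and 29.4% of all genes tested. FN1, the fibronectin gene and main ligand of alpha5, was at 2665 ± 98 CPM in ICAM1-high cells and 2824 ± 50.6 CPM in ICAM1-low cells, and its log2 fold change of -0.08 (SE 0.04, adjusted p = 0.0507) did not pass the test. FN1 was added to the genes named by the list rule after its value was seen. CCN2, a matricellular ligand, fell by 2.12, and TGFB1, whose latent form alphaV integrins bind, rose by 0.78. NPNT, a ligand of alpha8 in the mouse kidney, had 459 counts in ICAM1-high cells and 22 in ICAM1-low cells, and TGFB3 had 413 in ICAM1-high cells and 27 in ICAM1-low cells. ITGA8 was at 0 in every library. Among 11 ligands on cell surfaces 6 were tested, 4 were called higher and 1 lower. The 4 include ICAM1, whose difference was made by the sort, and VCAM1, which was tested through its ICAM1-high counts alone. VCAM1, the ligand of alpha4, had 53 counts in ICAM1-high cells and 6 in ICAM1-low cells, and ICAM5 had 194 in ICAM1-high cells and 76 in ICAM1-low cells, whereas the tight junction gene F11R fell by 0.54.

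**Figure D5:**
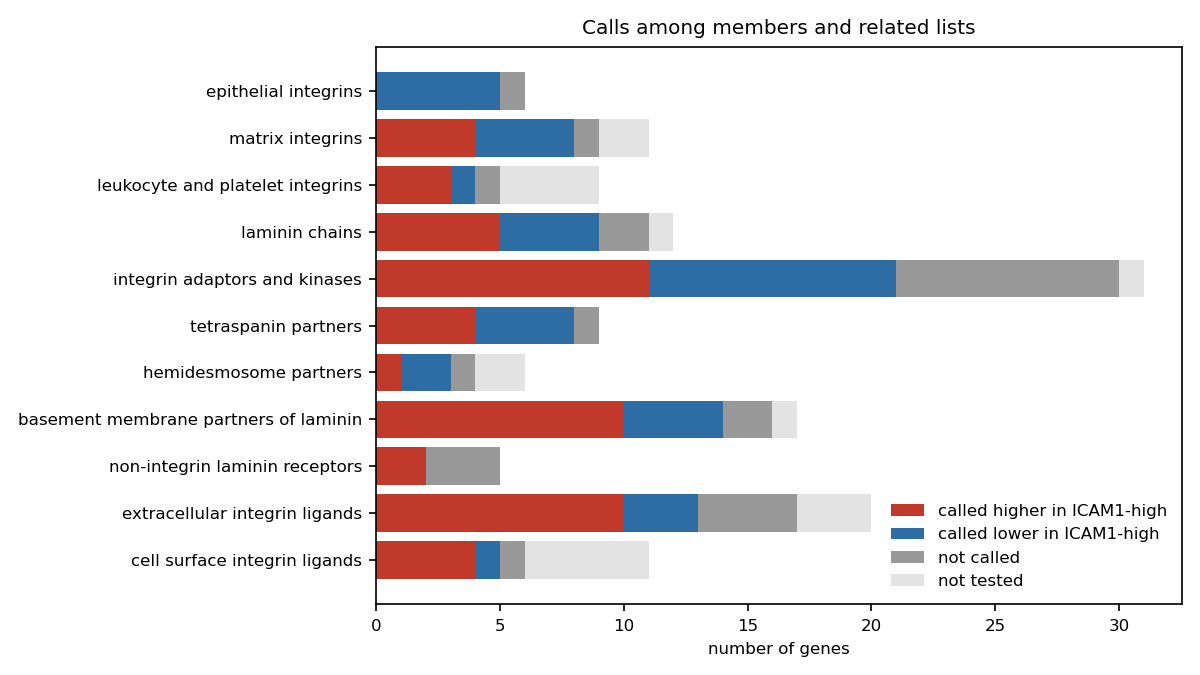
Number of genes called higher in ICAM1-high cells, called lower, not called and not tested, for the 4 member groups and 7 related lists (bars run from left in that order). Epithelial integrins hold 5 lower and 0 higher, basement membrane partners 10 higher and 4 lower. Of all genes tested, 30.4% were called higher and 29.4% lower.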

How the data were processed

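RNA-seq of 4 libraries was analysed, 2 from each sorted subset. Trizol RNA went into a SMARTER mRNA-Seq kit, per the labels' protocols. The authors deposited 1 table of raw counts per gene, whose columns carry the samples' descriptions. FastQC 0.10.1 and GRCh38 are named in the submitters' processing notes. Which aligner and counter were used, and how strand and shared reads were handled, is not given in the sources used here. Values of overlapping and related genes are therefore uncertain. Symbols came from a gene name table (58207 of 58735 identifiers), and positions, gene types and exon lengths from GENCODE release 29 (GRCh38), which held all identifiers.

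Counts were tested with edgeR 4.0.16 in R 4.3.3 (robust quasi-likelihood test, TMM scaling, filterByExpr at its default minimum count (10) and total (15), Benjamini-Hochberg adjustment over 16250 genes, calls at 0.05). TMM factors were 1.059 and 1.065 in ICAM1-high cells and 0.9395 and 0.9439 in ICAM1-low cells. Fold changes are ICAM1-high over ICAM1-low on the log2 scale, and "fell by" and "rose by" refer to it. The SE is the size of the log2 fold change divided by the square root of the F statistic. The common dispersion of 0.00133 corresponds to a coefficient of variation of 3.64% between libraries. Differences within a subset exceeded sampling noise (chi-square over degrees of freedom 2.32 in ICAM1-high cells and 1.63 in ICAM1-low cells). Exon length is that of all annotated exons merged, which overstates the transcript for some genes.

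The members, lists and groups were chosen with earlier results of these data known. Members were described one by one except for 1, which is not reported here and stays in the counts and sums, and of each other list up to 4 genes with the smallest adjusted p. The test was first tested on simulated counts. Alternatives were DESeq2 1.42.0 as a test or for size factors, library size only, omission of the filter, a minimum mean of 1 CPM, limma-voom (limma 3.58.1), the replicate number as a block, a threshold of 0.01 and omission of each library. A subset reduced to 1 library takes its spread from the other subset, which is an assumption.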

Additional observations from a re-analysis of the deposited data

How the results depend on the processing

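Of 31 tested members, 20 kept their direction and their side of the threshold under the alternatives that could be run for them, and 11 did not in at least 1. Scaling by library size alone called 3124 genes lower (4771 with TMM), among them 9 members (14), 2 laminin chains (4), 2 matrix integrins (4) and 0 leukocyte and platelet integrins (1), and turned LAMB2 to 0.14 and ITGAE to 0.03 on the log2 scale. DESeq2 as the test also called 0 leukocyte and platelet integrins lower. Leaving out 1 library at a time gave 0 to 2 such integrins and 2 to 3 matrix integrins called lower. Over the same omissions LAMB2 ranged between -0.09 and 0.01. LAMA1 stood at 6.46 without ICAM1-low replicate 2 and was filtered out when either ICAM1-high replicate was left out. It and ITGB3 were also filtered out at a minimum mean of 1 CPM. The causes were not tested. With the replicate block, 12 members were called higher and 14 lower, as without it, and 4976 genes higher and 4836 lower in all. The numbers share no stated origin, and the deviations of same-numbered libraries from their subset means correlated at 0.0413 across genes. An alternative added after the data were seen, which kept genes of at least 1 CPM in both subsets, gave 9 members called higher and 14 lower. Depth limits members under 100 counts over a subset, such as ITGB2 and ITGA10.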

Other observations

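The divergent noncoding transcript at the ITGB1 start, ITGB1-DT, was chosen after its values were seen. It had 176 and 139 counts in ICAM1-high cells, against 735 and 618 counts in ICAM1-low cells. These are 8.49 ± 1.32 CPM in ICAM1-high cells and 43.6 ± 4.74 CPM in ICAM1-low cells (SD, n = 2 each), a log2 fold change of -2.36 (SE 0.11, edgeR adjusted p = 1.07e-28), deeper than that of ITGB1 (-0.76). The annotated exons of ITGB1-DT and ITGB1 share 42 bases on opposite strands, and since the strand setting of the counting is not given, reads there could belong to either.

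Several members lie next to each other. ITGAM and ITGAX, 22.2 kb apart on chromosome 16, were called in opposite directions (-0.50 and 1.23 on the log2 scale). ITGA1 and ITGA2, 30.1 kb apart on chromosome 5, were both called lower, at -0.33 and -0.47. LAMB1 lies 20.3 kb from LAMB4 on chromosome 7, which had 14 counts in each subset, while LAMB1 fell by 0.87.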
